A study of Drosophila melanogaster with 34 samples.

Results

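In 34 single Drosophila embryos, 106 genes had levels that did not overlap between embryos carrying the CRY2-ZLD fusion and wild-type embryos, whatever light the embryos had received. They were chosen by CPM, the count of a gene scaled to a common library total. The mean had to reach 5 CPM in the higher genotype, and all 19 CRY2-ZLD libraries had to lie below, or all above, all 15 wild-type libraries. Of the 17491 genes counted, 6128 reached that mean and 106 of them (1.73%) were separated. In CRY2-ZLD, 48 (0.783%) were lower and 58 (0.946%) were higher. Since the choice used the levels in both genotypes, the differences between genotypes below are a description and carry no test.

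The study asked what happens to zygotic transcription when the factor Zelda is switched off with light at set times. CRY2-ZLD embryos carried Zelda fused to CRY2 and a red histone marker (CRY2-ZLD; His2AvRFP), and the embryos called wild type carried the marker alone (His2AvRFP). Blue light of 488 nm was given through nuclear cycles (NC) 10 to 14 (3 embryos of each genotype), NC10 to 12, NC13 to 14 or NC14 (4 of each), and 4 further CRY2-ZLD embryos received no blue light. All were imaged briefly at 587 nm, came from stocks kept at 25°C and were collected 30 minutes into NC14 for poly(A) RNA sequencing. The labels do not say how the stocks are related, and no unlit wild-type group was analysed here, so the fusion and any other difference between the stocks cannot be told apart.

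Zelda is a maternally supplied pioneer factor that opens chromatin at early zygotic enhancers and promoters. CRY2 is a plant photoreceptor whose molecules cluster in blue light, which is used to switch off proteins fused to it. At this age an embryo holds RNA loaded by the mother together with RNA from its own genome, so a level can differ through either source, and in whole embryos fewer cells with a transcript and less of it per cell cannot be told apart.

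Library totals ranged from 4382299 to 41210334 counts, the lowest in wild type NC13-14 replicate 4. An earlier reading of these data had set 5 libraries apart from the rest. They were replicates 3 and 4 of CRY2-ZLD NC10-12 and, of wild type, replicate 4 of NC13-14, replicate 3 of NC14 and replicate 2 of NC10-14. The median correlation of log2 CPM with the rest of its group was lowest, at 0.924, in wild type NC14 replicate 3. From the lowest, CRY2-ZLD NC10-12 replicates 3 and 4 ranked 2 and 5. Wild type NC10-14 replicate 2 ranked 7 and wild type NC13-14 replicate 4 ranked 18. CRY2-ZLD NC10-14 replicate 4, which was not set apart, ranked 3, so this measure does not single out these 5 libraries. With these 5 libraries left out, a choice made after seeing the data, the rule separated 172 genes, 72 lower and 100 higher. All 106 genes were among them. Leaving out libraries cannot make levels overlap, so only a mean that moved below 5 CPM could have removed one. The zld transcript itself was not separated, at 758 ± 348 CPM (SD, n = 19) in CRY2-ZLD and 609 ± 207 CPM (SD, n = 15) in wild type, and neither was His2Av. The table has no column for CRY2, so the fusion could not be read directly. The summed level of yolk protein and eggshell genes of follicle cells was at most 4.07 CPM in any library. No gene of the marker lists for germ plasm, mesoderm, ectoderm or later embryos was among the 106. Only 1.73% of all genes that reached 5 CPM were, so none in such short lists says little.

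**Figure D1:**
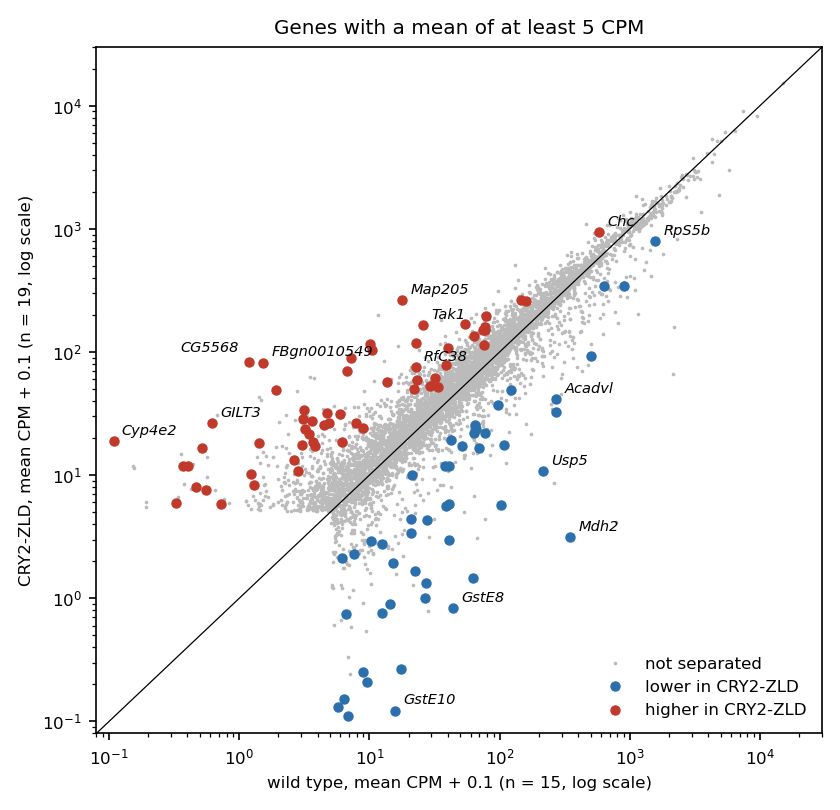
Mean CPM plus 0.1 of each of the 6128 genes that reached 5 CPM, in wild type (horizontal, 15 libraries) and CRY2-ZLD (vertical, 19 libraries), both axes on a log scale, with the line of equal level. The 48 genes lower and the 58 genes higher in CRY2-ZLD whose libraries do not overlap are coloured, and some of them lie close to the line while others lie far from it.

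The size of the difference varied widely among the 106 genes. Mean levels differed 1.85-fold to 697-fold in the lower group (median 6.56) and upward from 1.52-fold in the higher group (median 5.63). At least a 10-fold difference was seen for 19 lower and 17 higher genes, and less than 2-fold for 2 and 8. No gene was at 0 counts in every library of a genotype.

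Among the 48 lower genes, Mdh2, Acadvl and Pdhb encode enzymes of mitochondrial fuel use, a grouping made with their values known. The gap between genotypes is the lowest library of the higher genotype over the highest of the lower, with 0.1 CPM added to each. By this measure Mdh2 had the widest gap of all 106 genes. Without the added 0.1 CPM, Cyp4e2 and CG31683, both near 0 in a genotype, rank above it. Mdh2 encodes mitochondrial malate dehydrogenase, the citric acid cycle step from malate to oxaloacetate (FBgn0262559, 3R 18226396 to 18228718, plus strand, dm6). Its level had a lowest, median and highest value of 1.43, 3.10 and 6.26 CPM in CRY2-ZLD and of 294, 343 and 421 CPM in wild type, a 115-fold difference of means. Every CRY2-ZLD embryo, lit or unlit, was therefore far below every wild-type embryo. Within single light windows the log2 difference of Mdh2 ran from -7.18 at NC13-14 to -6.39 at NC10-14. Mdh1, the cytosolic malate dehydrogenase, was not separated (141 ± 54.8 CPM in CRY2-ZLD, SD, n = 19, and 135 ± 73.0 CPM in wild type, SD, n = 15). The genes on either side of Mdh2, CG7168 and CG7156, were not separated either.

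Acadvl encodes the acyl-CoA dehydrogenase for very long chains, which opens fatty acid beta-oxidation (FBgn0034432, 2R 19305172 to 19307445, plus strand). It ran from 15.8 through a median of 42.3 to 66.4 CPM in CRY2-ZLD and from 227 through 270 to 314 CPM in wild type. The lowest wild-type library was thus well above the highest CRY2-ZLD library.

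Pdhb, the beta subunit of the E1 enzyme of pyruvate dehydrogenase, was separated by a narrow margin and was uneven among CRY2-ZLD embryos. In 9 of them its level was 3.71 to 29.5 CPM and in the other 10 it was 72.9 to 88.8 CPM, against 89.8 to 198 CPM in wild type. No other gene of the 106 had so wide a gap inside a genotype with at least 4 libraries on each side. This gap was taken on the log2 scale with 0.5 CPM added, which shrinks gaps between values near 0. Pdhb was singled out after its values were seen. Low values of Pdhb occurred in all 5 CRY2-ZLD groups, as in unlit embryos at 17.5, 78.2, 84.1 and 78.1 CPM and in NC10-12 embryos at 76.6, 80.9, 3.71 and 4.96 CPM. Under scaling by ribosomal protein genes Pdhb no longer met the rule.

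Got1, the cytosolic aspartate aminotransferase of the malate-aspartate shuttle, went the other way. It ran from 219 through 255 to 369 CPM in CRY2-ZLD and from 96.3 through 147 to 217 CPM in wild type, so the groups almost touched, and it was lost under trimmed mean (TMM) and ribosomal protein scaling. These 3 genes were the members among 20 citric acid cycle and shuttle genes that reached 5 CPM. The median log2 difference of CRY2-ZLD over wild type was 0.29 for those 20 and 0.14 for all genes that reached 5 CPM.

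**Figure D2:**
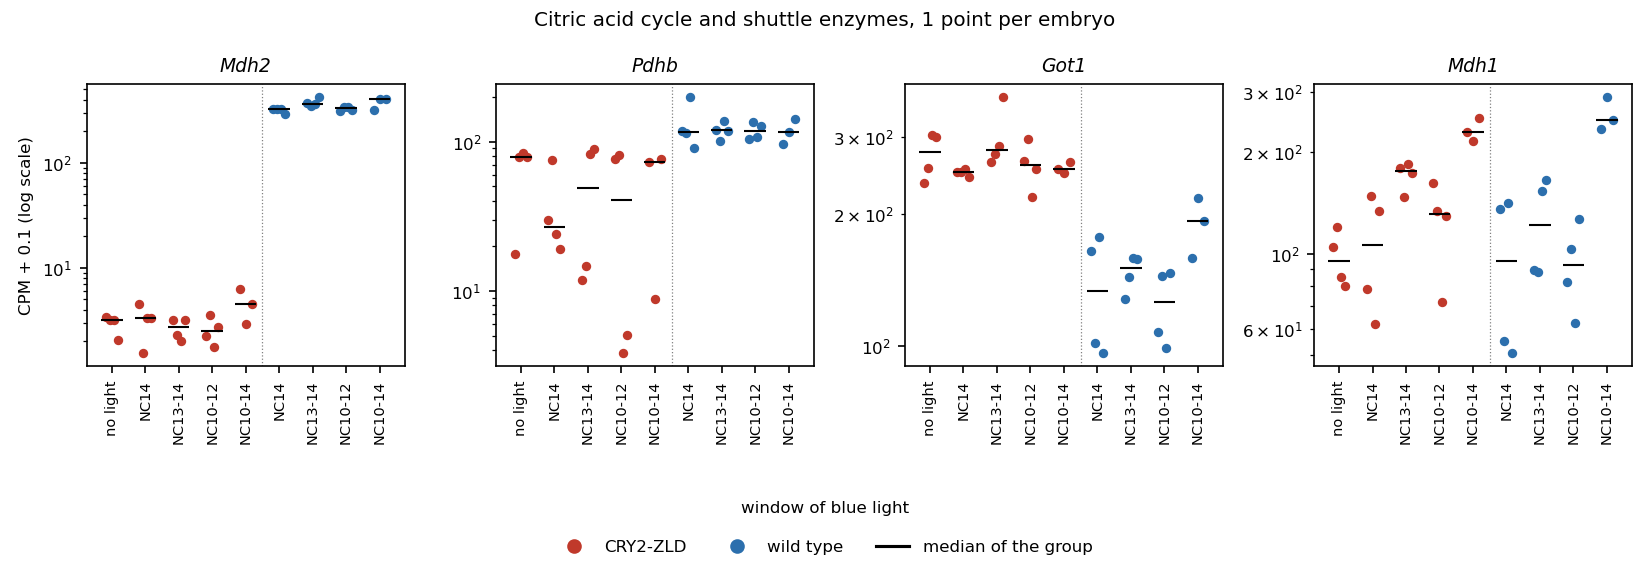
CPM plus 0.1 (log scale) of Mdh2, Pdhb, Got1 and, for comparison, Mdh1 in each embryo by group, with the median of each group as a bar. Mdh2 is at 1.43 to 6.26 CPM in all CRY2-ZLD embryos and at 294 to 421 CPM in wild type, Pdhb falls into 9 low and 10 higher CRY2-ZLD embryos, and Mdh1 overlaps between genotypes.

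Of the clustered genes for epsilon glutathione transferases, enzymes that couple glutathione to toxic compounds, 3 were members. All 3 were nearly silent in CRY2-ZLD and clearly present in wild type. GstE10 (FBgn0063499, 2R 18396638 to 18398519, minus strand) had a median of 0 and a highest value of 0.146 CPM in CRY2-ZLD, against 6.71, 13.7 and 31.6 CPM as lowest, median and highest value in wild type. In all it had 10 counts over the 19 CRY2-ZLD libraries, 14 of which were at 0, and 5564 over the 15 wild-type ones. GstE8 (FBgn0063492, 2R 18407834 to 18408955, plus strand) ran from 0 through 0.642 to 1.92 CPM against 23.8 through 40.3 to 81.1 CPM. GstE7, which ends 0.145 kb before GstE8 begins, ran from 0.180 through 0.579 to 4.63 CPM against 19.5 through 26.3 to 35.4 CPM.

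The other genes of the cluster did not share one pattern. GstE1, which lies between GstE10 and GstE7 and shares 20 exon bases with GstE10, stayed high in both genotypes, at 111 ± 16.1 CPM (SD, n = 19) in CRY2-ZLD and 83.8 ± 6.72 CPM (SD, n = 15) in wild type. GstE3, below the mean of 5 CPM, was at 0.0787 ± 0.0976 CPM (SD, n = 19) and 1.93 ± 0.684 CPM (SD, n = 15), and its libraries did not overlap. GstE9, next to GstE8, had 1.52 and 3.46 CPM as means and overlapped. GstE2, GstE4, GstE5 and GstE6 were near 0 in both genotypes, at or below 0.979 CPM in every library, and overlapped too. Counts were made without strand, and reads of near-identical copies may be split or lost, so single values in this family are uncertain. GstE11 and GstE12, farther along the arm, were not separated. All 3 separated GstE genes met the rule under each of the 5 scalings tried.

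**Figure D3:**
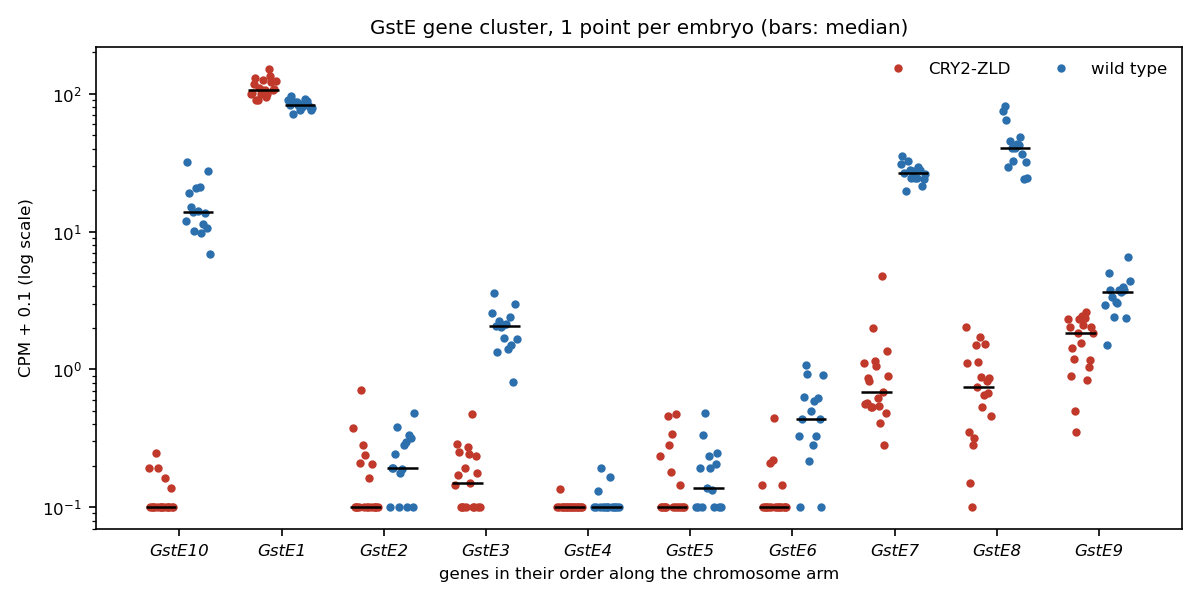
CPM plus 0.1 (log scale) of the 10 GstE genes of the cluster in their order along the arm, with 1 point for each embryo and a bar at the median of each genotype. GstE10, GstE7 and GstE8 are at or below 4.63 CPM in every CRY2-ZLD embryo and at or above 6.71 CPM in every wild-type one, while GstE1 is high in both.

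Usp5, a ubiquitin-specific protease known for taking apart free ubiquitin chains (FBgn0035402, 3L 3145405 to 3148358, minus strand), ran from 4.04 through 8.48 to 21.0 CPM in CRY2-ZLD and from 164 through 214 to 275 CPM in wild type. Its flanking genes Alg2 and BtbVII, 0.120 and 0.287 kb away, were not separated. Drep1, related to the inhibitor of the nuclease that cuts DNA in dying cells, ran from 14.8 through 29.9 to 61.4 CPM against 181 through 273 to 345 CPM.

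Some lower genes were picked after their values were seen. RpS5b, an ovary-enriched copy of a small-subunit ribosomal protein, ran from 648 through 776 to 1037 CPM against 1237 through 1560 to 2228 CPM, while its paralog RpS5a was at 705 ± 151 CPM (SD, n = 19) and 762 ± 147 CPM (SD, n = 15) and was not separated. The gap junction gene zpg, needed for germ cell differentiation, ran from 0.473 through 2.89 to 33.9 CPM against 38.3 through 93.7 to 212 CPM. Of the 7 genes on the list for pole cells and germ plasm, which holds neither of them, 0 were separated, against 1.73% of all genes that reached 5 CPM. Their median log2 difference of CRY2-ZLD over wild type was 0.21. The reticulon Rtnl1, which shapes the endoplasmic reticulum, the pseudouridine synthase Nop60B of rRNA, and the trehalose-splitting enzyme Treh were lower as well, with 2.66-fold, 1.85-fold and 4.81-fold differences of means.

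The other genes among the 12 widest gaps of the lower group are less well known. CG31683 had 5 counts over all CRY2-ZLD libraries, at most 0.0913 CPM, against 4.48 through 6.23 to 10.4 CPM in wild type, and it shares 172 exon bases with CG31688. CG12560 ran from 0 through 0.120 to 0.647 CPM against 6.41 through 13.6 to 62.4 CPM. Both were close to silent in every CRY2-ZLD embryo. Arc2, a relative of the Gag-like gene Arc1, ran from 0 through 0.109 to 0.455 CPM against 1.65 through 5.43 to 32.7 CPM. CG10654 ran from 0.0623 through 1.48 to 4.17 CPM against 12.7 through 19.6 to 36.5 CPM and shares 448 exon bases with vih. All 4 met the rule under each of the 5 scalings.

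Among the 58 genes higher in CRY2-ZLD, Cyp4e2 was nearly absent from wild type. It encodes a cytochrome P450, one of a family of oxidising enzymes (FBgn0014469, 2R 8444560 to 8447164, plus strand), and ran from 5.58 through 13.6 to 63.1 CPM in CRY2-ZLD. In wild type 13 of 15 libraries were at 0 and the highest was 0.0935 CPM. Pooled counts were 8380 against 3, a CPM ratio of 2355. That ratio rests on 3 counts in wild type, so its size is imprecise. Its neighbours CSN7 and Mal-A5 were not separated. The adjacent P450 gene Cyp4e1 was near 0 in both genotypes, with 0 counts in CRY2-ZLD and at most 0.0957 CPM in wild type. A second P450 gene, Cyp6a13, was lower in CRY2-ZLD, from 0 through 0.902 to 4.58 CPM against 8.71 through 25.2 to 63.6 CPM. These were the 2 members among 9 P450 and glutathione transferase genes of the detoxification list that reached 5 CPM, with a median log2 difference of 0.01. That list leaves out the members GstE7, GstE8 and GstE10, and GstZ1, a higher member that met the rule under 1 of the 5 scalings. It also leaves out GstE11, GstE13 and GstE14, which reached 5 CPM and were not members. Its count is therefore not that of the whole enzyme class.

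An ABC transporter gene (FBgn0010549, 2R 9390165 to 9395281, plus strand) ran from 55.9 through 78.6 to 127 CPM in CRY2-ZLD and from 0.510 through 1.04 to 3.60 CPM in wild type. GILT3, one of the lysosomal thiol reductase-like genes (FBgn0039098, 3R 23677358 to 23678421, plus strand), ran from 9.30 through 25.7 to 60.0 CPM against 0 through 0.469 to 1.09 CPM. Its neighbour GILT2, 0.473 kb away, was not separated (65.4 ± 24.6 CPM, SD, n = 19, and 79.2 ± 19.7 CPM, SD, n = 15). Both genes met the rule under all 5 scalings.

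CG5568 (FBgn0035641, 3L 5871501 to 5873518, plus strand) ran from 13.8 through 94.9 to 149 CPM against 0.273 through 0.957 to 2.01 CPM. It shares 208 exon bases with CG18586, which had means of 14.1 and 1.27 CPM and was not separated, and reads of the shared bases cannot be assigned to one of them.

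The remaining genes among the 12 widest gaps of the higher group met the rule under all 5 scalings as well. CG17816 ran from 6.96 through 11.4 to 20.02 CPM against 0 through 0.239 to 0.71004 CPM, and CG31517, which shares 289 exon bases with CG9926, from 28.1 through 44.9 to 91.4 CPM against 0 through 1.141 to 6.32 CPM. The noncoding RNA gene lncRNA:dntRL ran from 3.83 through 19.7 to 24.5 CPM against 0 through 0.383 to 1.63 CPM. Reepl1, a REEP-like gene, ran from 2.500 through 12.2 to 24.9 CPM against 0 through 0.218 to 1.141 CPM, and the annotated pseudogene CR33319 from 7.90 through 18.2 to 26.4 CPM against 0.654 through 1.12 to 3.73 CPM. CG17816 and CG31517 were at 0 in 1 wild-type embryo each, lncRNA:dntRL in 3 and Reepl1 in 4.

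Tak1, the kinase that acts upstream of JNK and of the Imd immune pathway (FBgn0026323, X 20515908 to 20524928, minus strand), ran from 97.9 through 161 to 237 CPM against 15.1 through 24.5 to 37.1 CPM. It was also the separated gene nearest to zld on the X chromosome, 0.732 Mb away. RfC38, a subunit of the clamp loader of DNA replication (FBgn0028700, 2L 11128932 to 11130645, minus strand), ran from 84.8 through 116 to 166 CPM against 16.1 through 22.8 to 33.1 CPM, and shares 404 exon bases with Nup160. Map205, a microtubule-associated protein that binds Polo kinase, ran from 114 through 261 to 394 CPM against 5.52 through 9.55 to 57.0 CPM, and the kinetochore gene Nnf1b and the synaptonemal complex gene c(2)M were higher too.

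Xrp1, a bZIP factor of the response to DNA damage and ribosome stress, ran from 7.51 through 18.7 to 109 CPM in CRY2-ZLD and from 0.567 through 2.71 to 6.55 CPM in wild type. It was the 1 member among 9 stress and cell death genes that reached 5 CPM, whose median log2 difference of CRY2-ZLD over wild type was 2.05, and under TMM, DESeq2 and ribosomal protein scaling it no longer met the rule. Of 20 genes of the piRNA pathway, which silences transposons, arx alone was a member (50.0 ± 8.21 CPM, SD, n = 19, against 21.9 ± 4.80 CPM, SD, n = 15), and the median of the 20 was 0.35. The clathrin heavy chain gene Chc, with 722 to 1252 CPM against 267 to 705 CPM, had one of the smallest differences, and it too was lost under those 3 scalings.

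Of the 34 early zygotic genes known for Zelda binding that reached 5 CPM, 0 were among the 106, against 1.73% of all genes at that level. Their median log2 difference of CRY2-ZLD over wild type was -1.24. Beside that share, a count of 0 or 1 in any of the lists used here says little about its genes. None of the 7 heat shock genes at that level was a member (median 0.21), and no antimicrobial peptide or recognition gene reached it. Of 5 eye colour, body colour and tagged genes that did, 0 were members (median 0.32).

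**Figure D4:**
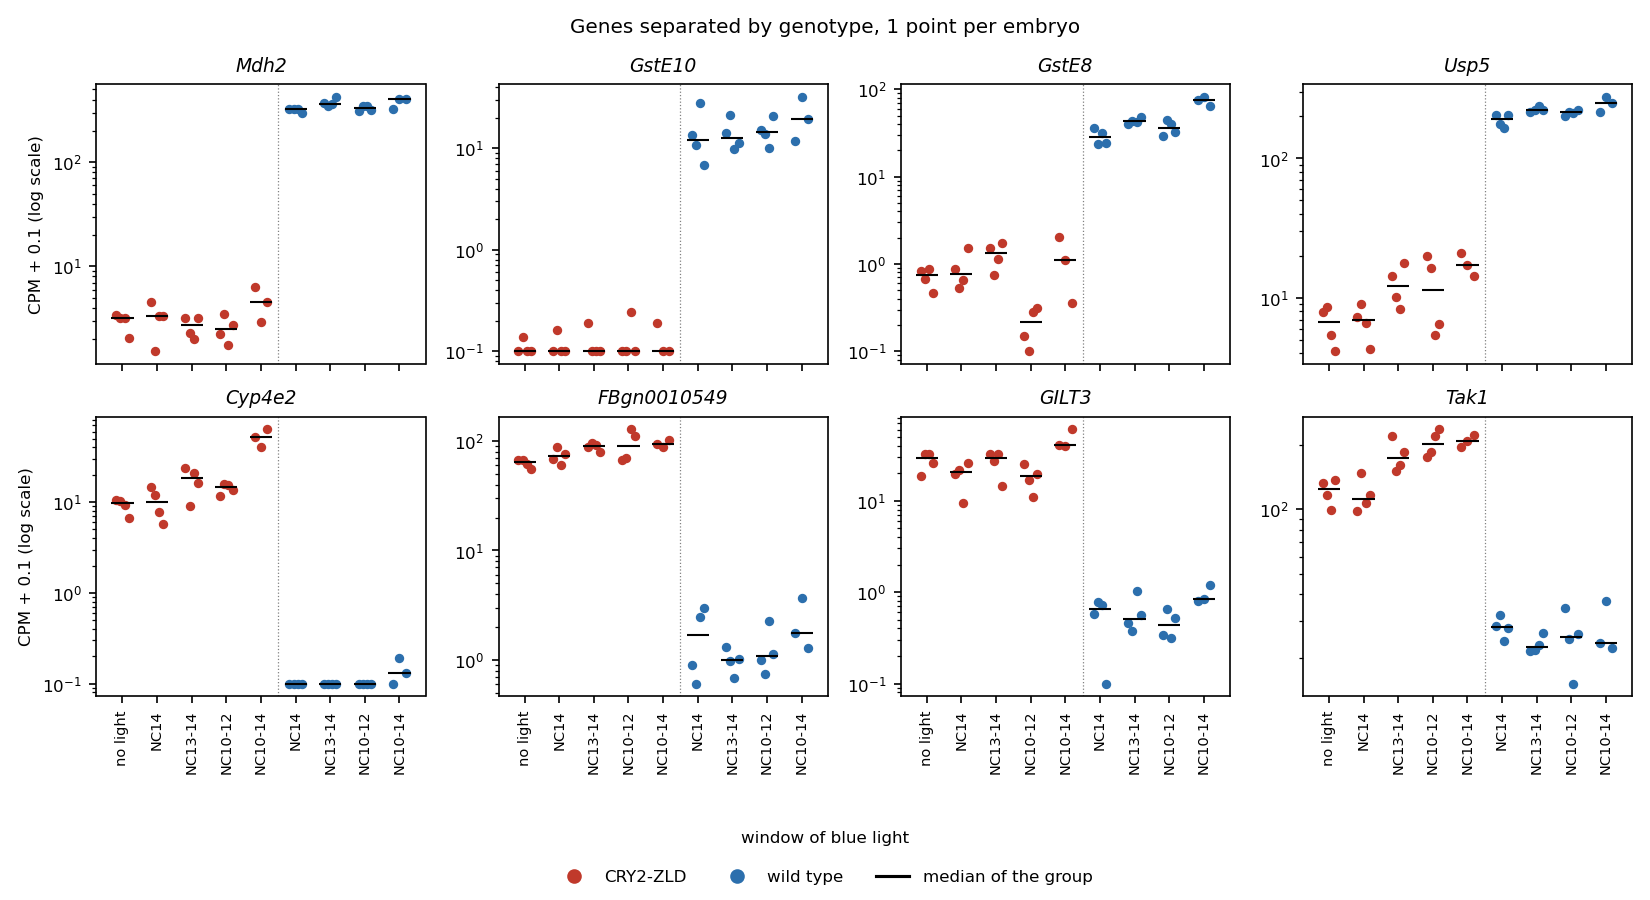
CPM plus 0.1 (log scale) of 4 genes lower (top) and 4 genes higher (bottom) in CRY2-ZLD, by group, with 1 point for each embryo and a bar at the median of each group. The rule required the gap between genotypes in unlit CRY2-ZLD embryos as in lit ones. Cyp4e2 is at 0 in 13 of 15 wild-type embryos.

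On the chromosome arms the 106 genes were spread unevenly. Arm 2R held 37 of them (34.9%), against 19.9% of all genes that reached 5 CPM. Of the genes of an arm that reached it, 3.04% were separated on 2R, 1.81% on 2L, 1.48% on 3R, 1.34% on X and 1.08% on 3L, and chromosome 4 held 0. Direction also differed between arms: 3L had 10 lower and 3 higher genes, X had 3 lower and 11 higher, and 2R had 19 and 18. These shares were not tested, since neighbouring genes are not independent.

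Few of the neighbouring genes were separated as well. Another member lay within 50 kb of 13 of them (12.3%), against 13.5% of all genes at that level. At 210 flanking positions, held by 207 different genes, 4 genes were separated, all of them members in the pairs GstE7 with GstE8 and CG32201 with CG32199, and at 177 positions (84.3%) the gene differed less than 2-fold, against 85.8% of all genes. In CG32201 and CG32199, which lie 0.037 kb apart, every CRY2-ZLD library was at or below 0.286 CPM. GstE10 was likewise lower together with GstE7 and GstE8, 8.40 and 9.31 kb away. The other near pairs went opposite ways: the transporter gene FBgn0010549 was higher and CG33774, 4.47 kb away, lower, and AstC, coding for the neuropeptide allatostatin C, was lower 47.5 kb from RfC38. CG5021 (0.541 through 1.90 to 3.18 CPM against 8.15 through 14.0 to 27.1 CPM) lies 18.5 kb from the higher gene CG5068 (14.9 through 22.0 to 44.4 CPM against 4.70 through 9.16 to 13.6 CPM). The antisense gene asRNA:CR43460 was lower 22.0 kb from CG31517, and its reads cannot be told from those of rdx, with which it shares exon bases. By annotation 101 (95.3%) of the 106 were protein coding, against 97.9%, and 35 (33.0%) shared exon bases with another gene, against 39.6%. The median exon length was 1867 bases, against 2275.

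Just inside the mean of 5 CPM were CG32199 (5.62 CPM in wild type), c(2)M (5.75 CPM in CRY2-ZLD) and Idgf3 (5.79 CPM in CRY2-ZLD), the last a chitinase-like growth factor. Just outside were wry (4.89 CPM in wild type, and 0 counts in all CRY2-ZLD libraries), CG30059 (4.73 CPM in wild type) and lncRNA:CR44608 (4.47 CPM in CRY2-ZLD), and 27 genes were separated below the minimum. Nearest to separation without reaching it were CG3744, Ipo9 and CG3909, higher in CRY2-ZLD, and prage and CG8891, lower. The scaling mattered for the balance of directions. With TMM the rule gave 65 lower and 46 higher genes, 89 of them shared with the 106, and with DESeq2 size factors 66 and 46, in place of 48 and 58. Under all 5 scalings 66 genes were separated, 30 of the 48 lower and 36 of the 58 higher.

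Whether the 106 genes also responded to light was tested within a genotype, which the rule did not use except that it limits the spread within each genotype. All 106 were among the 9519 genes tested with edgeR's quasi-likelihood test, with Benjamini-Hochberg adjustment over all of them and a threshold of 0.05. The 4 comparisons of lit with unlit CRY2-ZLD share the same 4 unlit embryos. The numbers in the library names place NC10-12 and NC14 in other sets of libraries than the unlit embryos, so window and set cannot be told apart there.

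After light through NC10-14, 35 of the 106 genes (33.0%) changed, against 37.4% of all genes tested, with 16 lower (17.1% of all genes were) and 19 higher (20.3% of all genes were). For NC10-12 the count was 24 (22.6%, against 28.1%), with 10 lower (14.4% of all) and 14 higher (13.8% of all). For NC13-14 it was 14 (13.2%, against 13.1%), with 7 lower (6.41% of all) and 7 higher (6.67% of all), and for NC14 it was 3 (2.83%, against 3.7%), with 2 lower (2.57% of all) and 1 higher (1.12% of all). The shares were thus close to or below those of all genes. In NC10-14, 13 of the 17 that changed among genes lower by genotype fell further, and 15 of the 18 among genes higher by genotype rose further, with medians over all members of each group of 0.02 and 0.22 on the log2 scale against 0 for all genes. The rule left less room for changes toward wild type, so these directions are not independent of it. In none of the 4 windows was a change called for 64 genes, Mdh2, GstE10, GstE7, Acadvl, Pdhb, FBgn0010549, GILT3 and RfC38 among them. A missed threshold does not show that they were unaffected.

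CG8960, an unnamed gene of unknown role (FBgn0035315, 3L 2197013 to 2198089, plus strand), had the smallest adjusted p of the 106 for light. Unlit CRY2-ZLD embryos had 196, 155, 245 and 230 CPM, and the NC10-14 embryos had 5.71, 4.25 and 2.07 CPM. It fell by 5.70 on the log2 scale (SE 0.54, edgeR adjusted p = 2.91e-09), by 3.13 in NC10-12 (SE 0.41, adjusted p = 7.38e-06) and by 1.68 in NC13-14 (SE 0.39, adjusted p = 0.00367). In NC14 embryos it was at 197, 33.6, 178 and 144 CPM, with a log2 difference of -0.60 (SE 0.38, edgeR adjusted p = 0.512). Wild-type embryos had 256 to 776 CPM, so even unlit CRY2-ZLD embryos were below the lowest of them. The difference between genotypes at CG8960 varied between the 4 windows (edgeR adjusted p = 3.86e-06), from -7.17 at NC10-14 to -1.56 at NC14 on the log2 scale.

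CREG, a secreted glycoprotein first known as a repressor of E1A-stimulated genes in mammals, followed the same order at smaller size. Unlit embryos had 62.6, 50.1, 52.0 and 59.0 CPM and NC10-14 embryos 21.8, 22.0 and 23.2 CPM, and these did not overlap. It fell by 1.32 on the log2 scale in NC10-14 (SE 0.21, edgeR adjusted p = 1.26e-05), by 0.96 in NC10-12 (SE 0.19, adjusted p = 0.000392) and by 0.87 in NC13-14 (SE 0.19, adjusted p = 0.00206). The last call was lost under ribosomal protein scaling (adjusted p = 0.061). CG6753 was called lower in all 4 windows, but rests on 47 counts over all CRY2-ZLD libraries, with 1.04 CPM in 1 unlit embryo. Without that embryo, replicate 3, it was called only in NC14.

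Among genes higher by genotype, Cyp4e2 had 10.5, 10.3, 9.29 and 6.50 CPM without light and 51.5, 40.8 and 63.1 CPM after NC10-14. It rose by 2.50 on the log2 scale (SE 0.38, edgeR adjusted p = 2.14e-05), and the other windows gave no call for it. Xrp1 rose by 2.33 in both NC10-14 (SE 0.48, edgeR adjusted p = 0.000277) and NC13-14 (SE 0.46, adjusted p = 0.000703), from 12.4, 10.6, 17.3 and 7.51 CPM unlit to 109, 55.5 and 21.3 CPM and to 79.4, 32.9, 108 and 31.99 CPM. The lit embryos of these 2 windows were all above the unlit ones and differed several-fold among themselves. Of the 12 stress and cell death genes tested, 7 (58.3%) rose and 1 (8.33%) fell in NC10-14, against 20.3% and 17.1% of all genes. Their median was 1.501 on the log2 scale, against 0 for all genes. In wild type NC10-14 against NC13-14, 2 of the 12 (16.7%) were higher and 0 lower, with a median of 0.68. Of all genes, 10.5% and 7.99% were. The genotype difference varied between windows for 0 of the 12, Xrp1 included, against 7.87% of all genes. These rises are thus not shown to be particular to CRY2-ZLD.

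CG5568 rose by 1.54 in NC10-14 (SE 0.49, edgeR adjusted p = 0.0126) and by 1.885 in NC10-12 (SE 0.47, adjusted p = 0.00279). Its call in NC13-14 (log2 1.36, edgeR adjusted p = 0.0471) was lost without any 1 of the 4 NC13-14 embryos or of unlit replicates 1, 3 and 4 (adjusted p = 0.0645 to 0.15). It went from 20.4, 74.0, 29.5 and 29.0 CPM unlit to 149, 116 and 76.8 CPM in NC10-14 and to 128, 147, 107 and 140 CPM in NC10-12. Tak1 rose by 0.79 in NC10-14 (SE 0.22, edgeR adjusted p = 0.0042) and by 0.91 in NC10-12 (SE 0.20, adjusted p = 0.00112). The NC10-12 call of Tak1 was lost without the 5 libraries that stand apart (log2 0.53, adjusted p = 0.109). Usp5 went against its genotype direction, rising by 1.41 in NC10-14 (SE 0.29, edgeR adjusted p = 0.000304) from 7.88, 8.48, 5.32 and 4.04 CPM to 21.0, 17.2 and 14.2 CPM, still far below the 164 CPM of the lowest wild-type embryo. Usp5 was also called in NC10-12 (log2 0.94, SE 0.28, edgeR adjusted p = 0.0111), but not without NC10-12 replicate 1 or unlit replicate 4 (adjusted p = 0.0812 and 0.0628). Its call in NC13-14 (log2 0.86, SE 0.28, edgeR adjusted p = 0.0359) was lost without replicate 1 or 4 of NC13-14 or unlit replicate 3 or 4 (adjusted p = 0.119 to 0.167).

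Several genes of the lower group fell in NC10-12 while NC10-14 gave no call for them. Gnptab, an enzyme known in mammals for tagging lysosomal enzymes, fell by 2.003 (SE 0.32, edgeR adjusted p = 4.44e-05). Its call in NC13-14 (log2 -1.02, edgeR adjusted p = 0.0285) was lost without replicate 1 or 4 of NC13-14 or unlit replicate 1 or 3 (adjusted p = 0.0691 to 0.109). In NC10-12 prtp, an endoplasmic reticulum protein with a part in the clearance of dying cells, fell by 1.36 (SE 0.29, edgeR adjusted p = 0.000826). GstE8 fell by 2.135 (SE 0.56, edgeR adjusted p = 0.00464), between values that were all below 1 CPM. In NC14, Ip6k, a kinase of inositol phosphates, rose by 0.78 (SE 0.16, edgeR adjusted p = 0.0023), a call lost under ribosomal protein scaling (adjusted p = 0.077), and Art2, of the arginine methyltransferase family, fell by 3.35 (SE 0.76, adjusted p = 0.00677), a call lost when the 2 groups were fitted alone (adjusted p = 0.146). The call of Ip6k in NC13-14 (log2 0.56, SE 0.16, edgeR adjusted p = 0.0193) was lost without replicate 1 or 2 of NC13-14 or unlit replicate 1 or 3 (adjusted p = 0.0502 to 0.0657). Art2 also fell in NC10-14, by 4.99 (SE 0.97, edgeR adjusted p = 0.000131), and in NC10-12 it fell by 3.095 (SE 0.74, adjusted p = 0.00194). It had 4, 0 and 0 counts in the NC10-14 embryos and 0, 9, 5 and 6 in the NC10-12 embryos. Unlit embryos had 66, 29, 65 and 11 counts, so the size of these falls rests on few reads.

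Other genes of the lower group called after NC10-14 light were zye, coding for a zona pellucida domain protein, which fell by 4.28 (SE 0.85, edgeR adjusted p = 0.000178), and the odorant-binding protein gene Obp99a, which fell by 3.39 (SE 0.65, adjusted p = 0.000118). CG10654 rose by 1.79 (SE 0.57, edgeR adjusted p = 0.0131). These 3 calls held without any 1 library. In the NC10-14 embryos zye had 3, 1 and 7 counts, against 92, 33, 74 and 51 unlit. Obp99a had 19, 12 and 1, against 113, 33, 132 and 106 unlit. The sizes of both falls are therefore imprecise. Reepl1, of the higher group, had a log2 difference of -2.07 (SE 0.68, edgeR adjusted p = 0.0157) that was no longer called without NC10-14 replicate 2 or 4 (adjusted p = 0.0619 and 0.0692).

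In wild type, NC10-14 against NC13-14 light changed 8 of the 106 genes (7.55%), against 18.5% of all genes, with 2 lower (7.99% of all) and 6 higher (10.5% of all). CanB2, a calcineurin B subunit, rose from 3.02, 1.74, 2.45 and 2.97 CPM to 8.35, 13.7 and 13.5 CPM, by 2.26 on the log2 scale (SE 0.28, edgeR adjusted p = 9.93e-06). In CRY2-ZLD it also rose in NC10-14 against unlit embryos, by 1.29 (SE 0.26, edgeR adjusted p = 0.000238). Kebab, a kinetochore-associated protein, fell by 2.20 in wild type (SE 0.57, edgeR adjusted p = 0.00743), and in CRY2-ZLD its log2 difference of NC10-14 from unlit embryos was 1.36 (SE 0.48, adjusted p = 0.0255). The CRY2-ZLD call of Kebab was lost without replicate 1 or 2 of NC10-14 or unlit replicate 3 or 4 (edgeR adjusted p = 0.0519 to 0.0853). Without wild type NC10-14 replicate 2, 3 genes were called. Among the calls then lost were Arc2 (adjusted p = 0.101 by edgeR), CG7137 and the chromatin accessibility complex gene Chrac-16. Sodh2, a sorbitol dehydrogenase gene, was lost without that library and without several others. FBgn0259247 rose by 1.46 (SE 0.34, edgeR adjusted p = 0.00369), a call lost without the 5 libraries that stand apart.

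The genotype difference varied between the 4 lit windows for 11 of the 106 genes (10.4%), against 7.87% of all genes, by edgeR's F test of the interaction at the same threshold. The rule favours genes whose difference varies little, so this share is not a measure of how even they are. After CG8960 came Cpr60D, a cuticle protein gene (adjusted p = 0.00237), Kebab (adjusted p = 0.00728), CG18476 (adjusted p = 0.0125) and Lime (adjusted p = 0.0143), with GstE8, CG4598, Ip6k, CG32201, Gnptab and Tak1 at 0.0216 to 0.0353. Among the 34 early zygotic genes tested, 29 passed the same test.

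**Figure D5:**
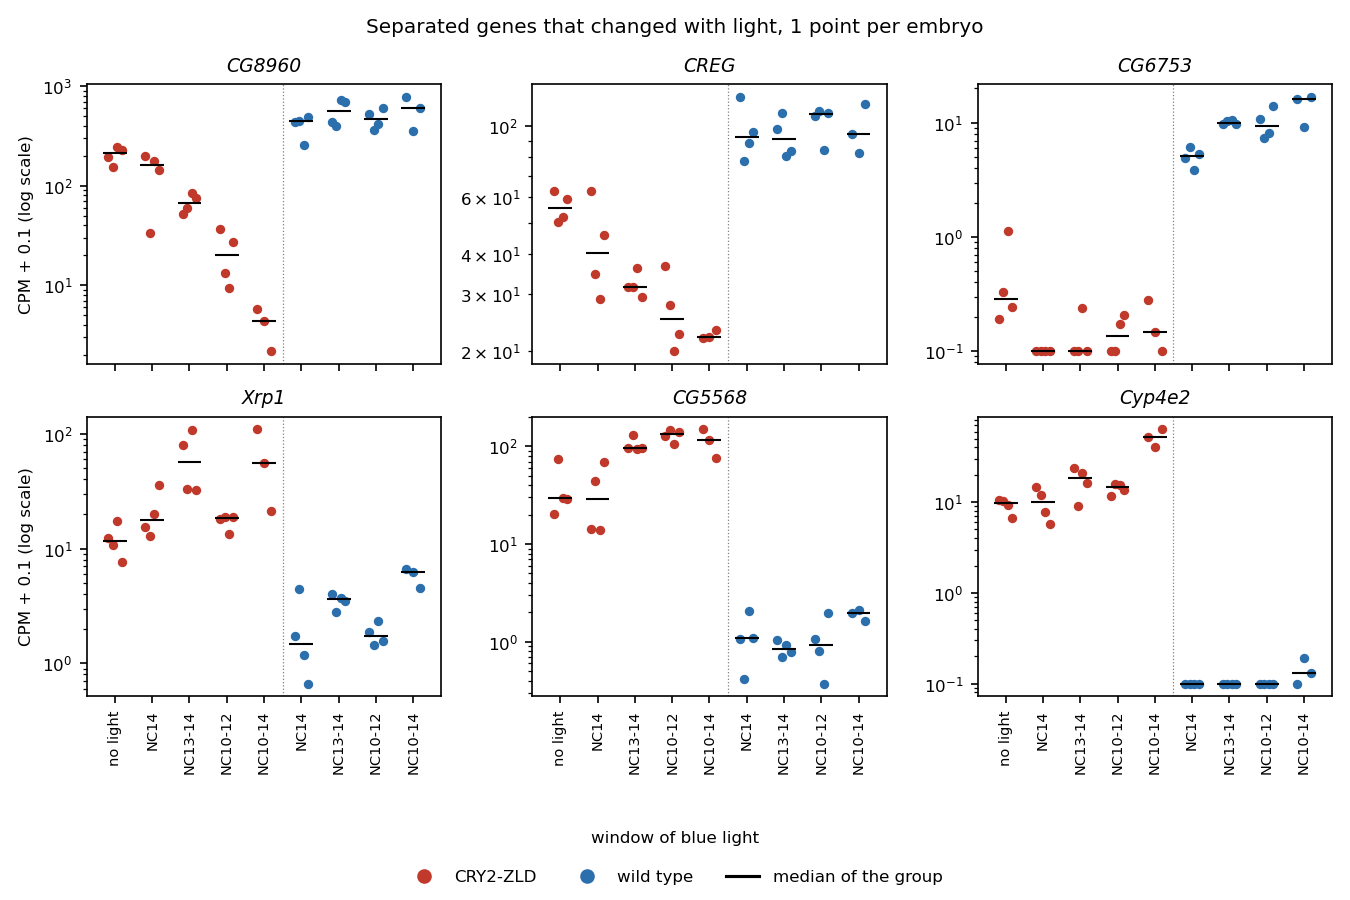
CPM plus 0.1 (log scale) by light window of 3 genes lower (top) and 3 genes higher (bottom) in CRY2-ZLD, with 1 point for each embryo and a bar at the median of each group. By group median CG8960 and CREG are lowest and Cyp4e2 is highest in the NC10-14 embryos of CRY2-ZLD. All 6 genes are apart from wild type in every window, as the rule required.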

How the data were processed

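The authors deposited 1 table of raw counts per gene for 34 single-embryo libraries. Per the file headers they were made with featureCounts v1.5.3 on the FlyBase release 6.20 annotation, with no option for strand or multi-mapping reads. The submitters' processing notes name Trimmomatic 0.36, HISAT2 2.1.0, DESeq2 1.14.1 and dm6. The other deposited column, exon length in bases (other unit), served only to describe the genes. Symbols came from the reference tables for 17360 of 17491 genes, and no sequence was read.

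CPM used the column sum. Python scripts applied the rule. Under R 4.3.3, edgeR 4.0.16 (TMM, glmQLFit, glmQLFTest) fitted 1 model of the 9 group means, over the 9519 genes kept by filterByExpr (minimum count 10), which hold 99.98% of counts (common dispersion 0.197). Scripts were tested on simulated data. Each library is 1 embryo, and the tests set a difference between groups against the spread between embryos within the 9 groups. Depth of 4382299 to 41210334 counts limits the precision of genes of a few CPM.

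Alternatives were other scalings (TMM, DESeq2 1.42.0 size factors, without mitochondrial and rRNA genes, by 77 ribosomal protein genes), CPM minimums, thinning, DESeq2's test, filters, a block on replicate number, the groups compared alone, and each library left out. The members and gene lists were chosen with earlier results of these data known. Genes named are the 12 with the widest gap in each direction, members in the lists and up to 8 called per comparison. Members within 50 kb of another and those near the thresholds are named too. Drep1, Treh, RpS5b, Rtnl1, Nop60B, zpg, Map205, Nnf1b, Chc, GstZ1 and the flanking genes and paralogs were chosen after their values were seen.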

Additional observations from a re-analysis of the deposited data

Results flagged for a closer look

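For 15 genes, 105 groups of 4 libraries were examined for a stray sample. In 12 cases 1 library lay apart from the others of its group by Dixon's criterion. Chance gives such a result in about 5% of groups of normally spread values. That rate does not apply where the other libraries are all at 0, as for GstE10 below, since any single read then gives a flag. Mdh2 was at 1.95 CPM in CRY2-ZLD no light replicate 4 (others 3.11 to 3.33) and at 294.1 CPM in wild type NC14 replicate 4 (others 324.4 to 327.5). In 4 groups of CRY2-ZLD a single library had any count of GstE10, at 0.1455 CPM in NC10-12 replicate 3, 0.09095 CPM in NC13-14 replicate 1, 0.06225 CPM in NC14 replicate 2 and 0.03804 CPM without light in replicate 2. GstE7 was at 4.628 CPM in CRY2-ZLD NC14 replicate 3. CREG was at 84.22 CPM in wild type NC10-12 replicate 3, and RfC38 at 28.36 CPM in wild type NC13-14 replicate 3. CG5568 was at 129.7 CPM in CRY2-ZLD NC13-14 replicate 2 and at 74.0 CPM in CRY2-ZLD no light replicate 2, and Xrp1 at 13.21 CPM in CRY2-ZLD NC10-12 replicate 3.

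The difference between genotypes varied with the light window, by edgeR's interaction test, for CG8960 (adjusted p = 3.86e-06), Cpr60D (adjusted p = 0.00237), Kebab (adjusted p = 0.00728), CG18476 (adjusted p = 0.0125), Lime (adjusted p = 0.0143), GstE8 (adjusted p = 0.0216), CG4598 (adjusted p = 0.0229), Ip6k (adjusted p = 0.0268), CG32201 (adjusted p = 0.0292), Gnptab (adjusted p = 0.0302) and Tak1 (adjusted p = 0.0353).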

How the results depend on the processing

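The number of separated genes was 111 with TMM, 112 with DESeq2 size factors, 108 without mitochondrial and rRNA genes, 82 with ribosomal protein scaling, 92 after thinning to equal depth and 148 over lit libraries alone, and with any 1 library left out it ran from 106 to 134 (highest without wild type NC10-14 replicate 2). It was 172 without the 5 libraries that stand apart. Scaling by ribosomal protein genes moved the median over all genes by 0.257 on the log2 scale in NC10-14 against no light and by 0.117 in wild type, and left 6 members called in NC13-14, 14 in NC10-12 and 4 in the interaction. It also took the share of lower calls among all genes from 45.6% to 31.6% in NC10-14 and from 43.1% to 27.9% in wild type. DESeq2's test gave 17 in the interaction and 14 in wild type, where the 2 groups alone gave 17. Without the 5 libraries, 11 members were called in NC10-12, 5 in NC14 and 7 in the interaction. With any 1 library left out, the counts were 27 to 33 in NC10-14, 6 to 12 in NC13-14, 15 to 25 in NC10-12, 3 to 4 in NC14, 3 to 9 in wild type and 8 to 14 in the interaction. NC13-14 fell to 6, 7 or 9 without CRY2-ZLD NC13-14 replicates 1 or 4 or no light replicates 1, 3 or 4, NC10-12 to 15 without its replicate 4, and wild type to 3 without NC10-14 replicate 2. In these cases the cause was not tested. The call of zpg in NC10-14 against no light (log2 1.74) ran from -0.033 without CRY2-ZLD NC10-14 replicate 4 to 2.286 without its replicate 2. Of 84 calls of a member in the 5 light comparisons, 42 held without any 1 library and 34 under every alternative. Over all genes tested, NC13-14 gave 2079 calls with the 2 groups alone and 804 with ribosomal protein scaling in place of 1245, NC14 gave 537 with DESeq2's test in place of 352, and the interaction gave 236 with ribosomal protein scaling, 1276 with DESeq2's test and 460 without the 5 libraries in place of 749. Without the 5 libraries NC10-12 gave 992 in place of 2678 and wild type 1021 in place of 1764. Replicate numbers did not pair the samples (correlations of same-numbered deviations from -0.18 to 0.127), and with the replicate block the counts of members called were 33 in NC10-14, 13 in NC13-14, 24 in NC10-12, 3 in NC14, 9 in wild type and 10 in the interaction. Depth limits genes near 0, such as CG6753, CG32199 and GstE10, where single reads decide a value.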
